A study of Mus musculus with 6 samples.

Results

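The genes described here encode matrix proteins other than collagens, namely elastic fibre proteins, leucine-rich proteoglycans, basement membrane proteins, matricellular proteins and hyaluronan enzymes. They were taken from a list of 48 gene names, and a gene entered through the probe sets that the array annotation ties to it alone. Of the 48 genes, 45 had such a probe set, 92 probe sets in all, among 18193 genes on the array. Fbn1, Efemp2 and Spp1 are not analysed here. RNA came from As4.1 cells, a mouse line derived from a kidney tumour of an animal that carried a viral oncogene under a renin promoter, and used as a model of the renin-producing juxtaglomerular cell. The groups were As4.1 cells treated with interleukin, As4.1 cells treated with hydrogen peroxide, which is an oxidant, and As4.1 cells that received vehicle. The titles number 2 treatments in every group, taken here as separate cultures, each put on 1 Affymetrix mouse genome array, which makes 6 arrays. The p-values measure the spread between these numbered samples. The labels used here give neither the kind of interleukin nor any dose or time, and all 3 groups are the same tumour-derived line.

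Matrix proteins form the scaffold around cells. Fibrillins, fibulins and elastin build elastic fibres, laminins, nidogens and perlecan build basement membranes, and small leucine-rich proteoglycans bind collagen fibrils and growth factors. Matricellular proteins such as tenascins and thrombospondins modulate adhesion rather than bear load, and hyaluronan, a long sugar chain made at the cell membrane, is bound by versican and by TSG-6, the product of Tnfaip6. In the kidney, juxtaglomerular cells share their origin with mural cells of the afferent arteriole and stromal fibroblasts, which are producers of such matrix.

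Values are MAS5 signals on a linear scale. The median signal of an array was 192.2 to 232.3, and arrays of 1 group correlated at 0.9808 to 0.9871 on the log2 scale. Of 11 stromal and mural markers on the array, 8 were bright enough to be tested, among them Vim at 52103 to 56376 and Pdgfra at 30005 to 41618 on all arrays. They did not move together. Acta2, Pdgfrb and Pdgfra rose with interleukin (0.99, 0.56 and 0.41 on the log2 scale, limma adjusted p = 0.00305, 0.00327 and 0.00373), and Foxd1 fell under interleukin and hydrogen peroxide (-0.60 and -0.98, adjusted p = 0.0257 and 0.0066). The summed signal of that list was 123171 and 134810 with interleukin, 107180 and 108605 with hydrogen peroxide, and 108070 and 110555 with vehicle. Renin is not analysed here. Of 9 endothelial markers Kdr alone was bright (8069 to 15690, and lower with interleukin), while Pecam1 (at most 48.7) and Vwf (at most 44.8) were dim, and the summed signal was 8584 and 12084 with interleukin, 11044 and 11824 with hydrogen peroxide, and 13658 and 16062 with vehicle. Of 9 leukocyte markers 4 were tested, and Cd14 was higher with interleukin and Cd68 under both treatments, whereas the defining marker Ptprc lay at 21.3 to 125.7. The summed leukocyte signal was 6936 and 7713 with interleukin, 4777 and 4973 with hydrogen peroxide, and 4141 and 4260 with vehicle. For the 10 epithelial markers, of which 2 were tested, it was 1469 and 1744, 1230 and 1276, and 1602 and 1645 in the same groups. Beta-actin control signals, compared as 3' over 5' to gauge RNA integrity and labelling, gave ratios of 1.46 and 1.55 with interleukin, 1.35 and 1.32 with hydrogen peroxide, and 1.22 and 1.26 with vehicle. The same ratio was further apart for Tfrc, at 3.05 and 3.95 with interleukin, 3.54 and 2.3 with hydrogen peroxide, and 1.85 and 2.14 with vehicle. For Pcx it was 2.3 and 2.46, 2.89 and 2.03, and 1.66 and 1.59 in the same groups, so that every treated array lay above both vehicle arrays for all 3 controls. For Gapdh it was 0.836 to 0.873 with treatment, against 0.825 and 0.836 with vehicle. These markers and ratios differ between the groups alongside the results below, and their part in them was not tested. A lower signal can also mean fewer cells of a kind or less RNA per cell, which bulk samples cannot tell apart.

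Each gene is given by its brightest probe set on average over the log2 signals of all arrays, and it was tested when this average reached the median of all probe sets, a signal of 193.7. This held for 34 of the 45 genes, and in none of the 34 was the vehicle signal itself below that limit. Changes were tested with limma over all 22519 probe sets bright enough, and a gene is said to have changed when the Benjamini-Hochberg adjusted p was under 0.05. Under interleukin 14 of the 34 genes rose and 2 fell (41.2% and 5.88%), where 9.78% of all 10892 tested genes rose and 6.61% fell. Their median log2 change was 0.30, against 0.03 for all tested genes. Under hydrogen peroxide 1 gene rose and 7 fell (2.94% and 20.6%), where 4.08% of all tested genes rose and 2.91% fell, and the medians were -0.11 for the matrix genes and 0.06 for all tested genes. Between the treatments 13 genes were higher with interleukin and 0 were lower (38.2% and 0%), where 6.3% of all tested genes were higher and 4.06% lower. At an unadjusted p under 0.05 limma found 19 higher and 0 lower, and the share of all tested genes at that threshold was not computed. Without a trend on signal limma called 6 higher and 0 lower, where 429 of all 10892 tested genes were called in either direction. With a fold of at least 2 as well, 4 genes rose and 1 fell under interleukin (3.24% and 0.744% of all tested genes), 1 rose and 3 fell under hydrogen peroxide (1.17% and 0.331%), and 5 were higher and 0 lower between the treatments (2.35% and 0.624%). The 2 comparisons with vehicle use the same vehicle arrays. Precision is limited by how few arrays there were. Of the 16 interleukin calls, 8 held under the 15 alternatives that keep the threshold and a single probe set per gene. Of these 8, 3 (Mgp, Fbln1 and Tnfaip6) were changes of less than 2-fold. Without a trend of the variance on signal 0 of the 8 hydrogen peroxide calls passed (12 of the 34 genes at an unadjusted p under 0.05, smallest adjusted p = 0.0526). In that fit 34 of all 10892 tested genes passed, and 21% had an unadjusted p under 0.05. Without vehicle array 1 the number of changed genes was 8 with interleukin and 3 with hydrogen peroxide, and without vehicle array 2 it was 12 and 4. Without hydrogen peroxide array 1 the hydrogen peroxide count was 5, and without hydrogen peroxide array 2 the count between the treatments was 7.

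**Figure D1:**
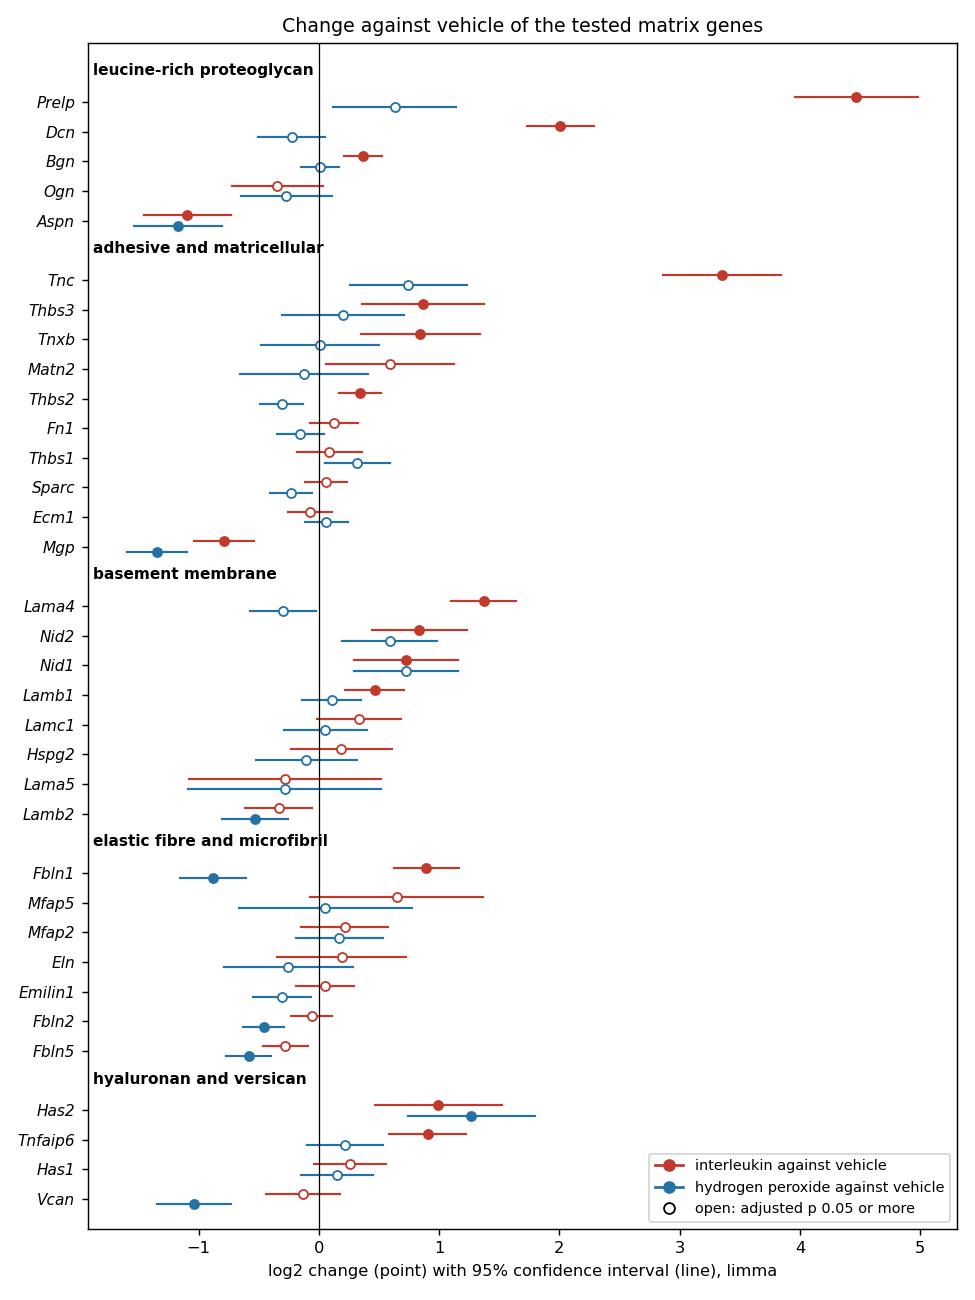
Log2 change of each of the 34 tested matrix genes with interleukin (red) and hydrogen peroxide (blue) against vehicle, grouped by role. Points are limma estimates from 2 arrays per group, lines are 95% confidence intervals, and filled points have an adjusted p under 0.05. Prelp (4.47), Tnc (3.35) and Dcn (2.01) lie far to the right with interleukin, Fbln1 lies on opposite sides in the 2 comparisons, and Aspn and Mgp lie to the left in both.

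Among the leucine-rich proteoglycans 3 of 5 tested genes rose under interleukin and 1 fell (9.78% and 6.61% of all tested genes). With hydrogen peroxide 1 fell (2.91% of all tested genes). Prelp encodes prolargin, which anchors basement membranes to connective tissue. Its signal was 10856 and 6686 with interleukin, 658 and 538 with hydrogen peroxide, and 345 and 429 with vehicle. Both interleukin arrays stood far above all others, and the hydrogen peroxide arrays lay above the vehicle arrays without overlap. The interleukin change was 4.47 ± 0.23 on the log2 scale (SE, n = 2 per group, adjusted p = 1.11e-06), a fold of 22.2, and the hydrogen peroxide change of 0.63 did not pass (limma, adjusted p = 0.139). The second Prelp probe set read 4900 and 2436 with interleukin, 209.5 and 238 with hydrogen peroxide, and 46.5 and 47.4 with vehicle. On that probe set both treatments passed, with log2 changes of 6.20 for interleukin and 2.25 for hydrogen peroxide (limma, adjusted p = 2.04e-06 and 0.00594), and its vehicle signals lie below the 193.7 limit.

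Dcn encodes decorin, which binds collagen fibrils and TGF-beta. It read 14683 and 17427 with interleukin, 3711 and 3112 with hydrogen peroxide, and 3905 and 4046 with vehicle. The interleukin arrays lay above all others, and the hydrogen peroxide arrays just below the vehicle arrays. The log2 change was 2.01 ± 0.12 for interleukin (SE, limma adjusted p = 4.31e-06) and -0.23 ± 0.12 for hydrogen peroxide (adjusted p = 0.322). Bgn, encoding the related biglycan, read 43764 and 47056 with interleukin, 35706 and 35078 with hydrogen peroxide, and 34557 and 35765 with vehicle, so that the interleukin arrays stood above and the other groups overlapped. It rose by 0.37 ± 0.07 under interleukin (log2, SE, limma adjusted p = 0.00602), with adjusted p = 0.0658 without vehicle array 1, and its 3 probe sets all rose (0.25 to 0.41).

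Aspn, which encodes asporin, a proteoglycan that binds calcium and TGF-beta, went the other way. It read 1556 and 1154 with interleukin, 1240 and 1301 with hydrogen peroxide, and 2933 and 2787 with vehicle, and every treated array lay below both vehicle arrays. It fell by 1.09 ± 0.16 under interleukin and by 1.17 ± 0.16 under hydrogen peroxide (log2, SE, limma adjusted p = 0.00151 and 0.00385, the second 0.0509 without vehicle array 1). Its other probe set read 1973 and 1279, 1376 and 1319, and 2310 and 2148 in the same order of groups, below vehicle on all treated arrays, but did not pass (-0.49 and -0.73, adjusted p = 0.116 and 0.0545). Ogn, encoding osteoglycin, read 17248 and 11412 with interleukin, 13056 and 16727 with hydrogen peroxide, and 18206 and 17449 with vehicle. It did not pass in either comparison (-0.35 and -0.27, adjusted p = 0.206 and 0.395), and its other probe set, at 19065 and 11824, 13423 and 14543, and 13164 and 13074, had changes of the opposite sign (0.20 and 0.09, adjusted p = 0.492 and 0.806).

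Promoter windows of 300 bases, from 250 before to 50 after a RefSeq start on GRCm38.p6, are printed for Prelp, the gene that rose most, and for Aspn, which fell under both treatments. Capitals mark matches on both strands to the motifs searched, a TATA box (TATAAA), AP-1 (TGANTCA), STAT (TTCNNNGAA) and NF-kappaB. The last was also searched as a pattern of letters and is given here by name only. In these as in the later windows the sequence runs 5′ to 3′ and a match is a description of letters. The Prelp window, at chr1:133921352-133921651 on the minus strand, held no match to these letters. Since the gene is annotated at chr1:133910304-133930102, this window lies inside it, and the outer end of the gene was not searched. The Aspn window, at chr13:49544193-49544492 on the plus strand, held TATAAA in both orientations, beginning 207 and 178 bases before the start.
Prelp: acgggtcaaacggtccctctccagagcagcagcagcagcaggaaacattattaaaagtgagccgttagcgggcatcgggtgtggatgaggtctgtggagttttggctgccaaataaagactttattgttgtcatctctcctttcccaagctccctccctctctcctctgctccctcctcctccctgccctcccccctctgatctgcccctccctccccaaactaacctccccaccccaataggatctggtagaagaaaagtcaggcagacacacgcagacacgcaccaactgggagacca
Aspn: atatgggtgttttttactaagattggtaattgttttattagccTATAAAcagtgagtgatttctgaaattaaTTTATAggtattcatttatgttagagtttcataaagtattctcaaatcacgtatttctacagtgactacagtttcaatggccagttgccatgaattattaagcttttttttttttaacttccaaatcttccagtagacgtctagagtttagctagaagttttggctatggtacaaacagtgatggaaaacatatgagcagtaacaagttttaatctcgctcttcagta

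**Figure D2:**
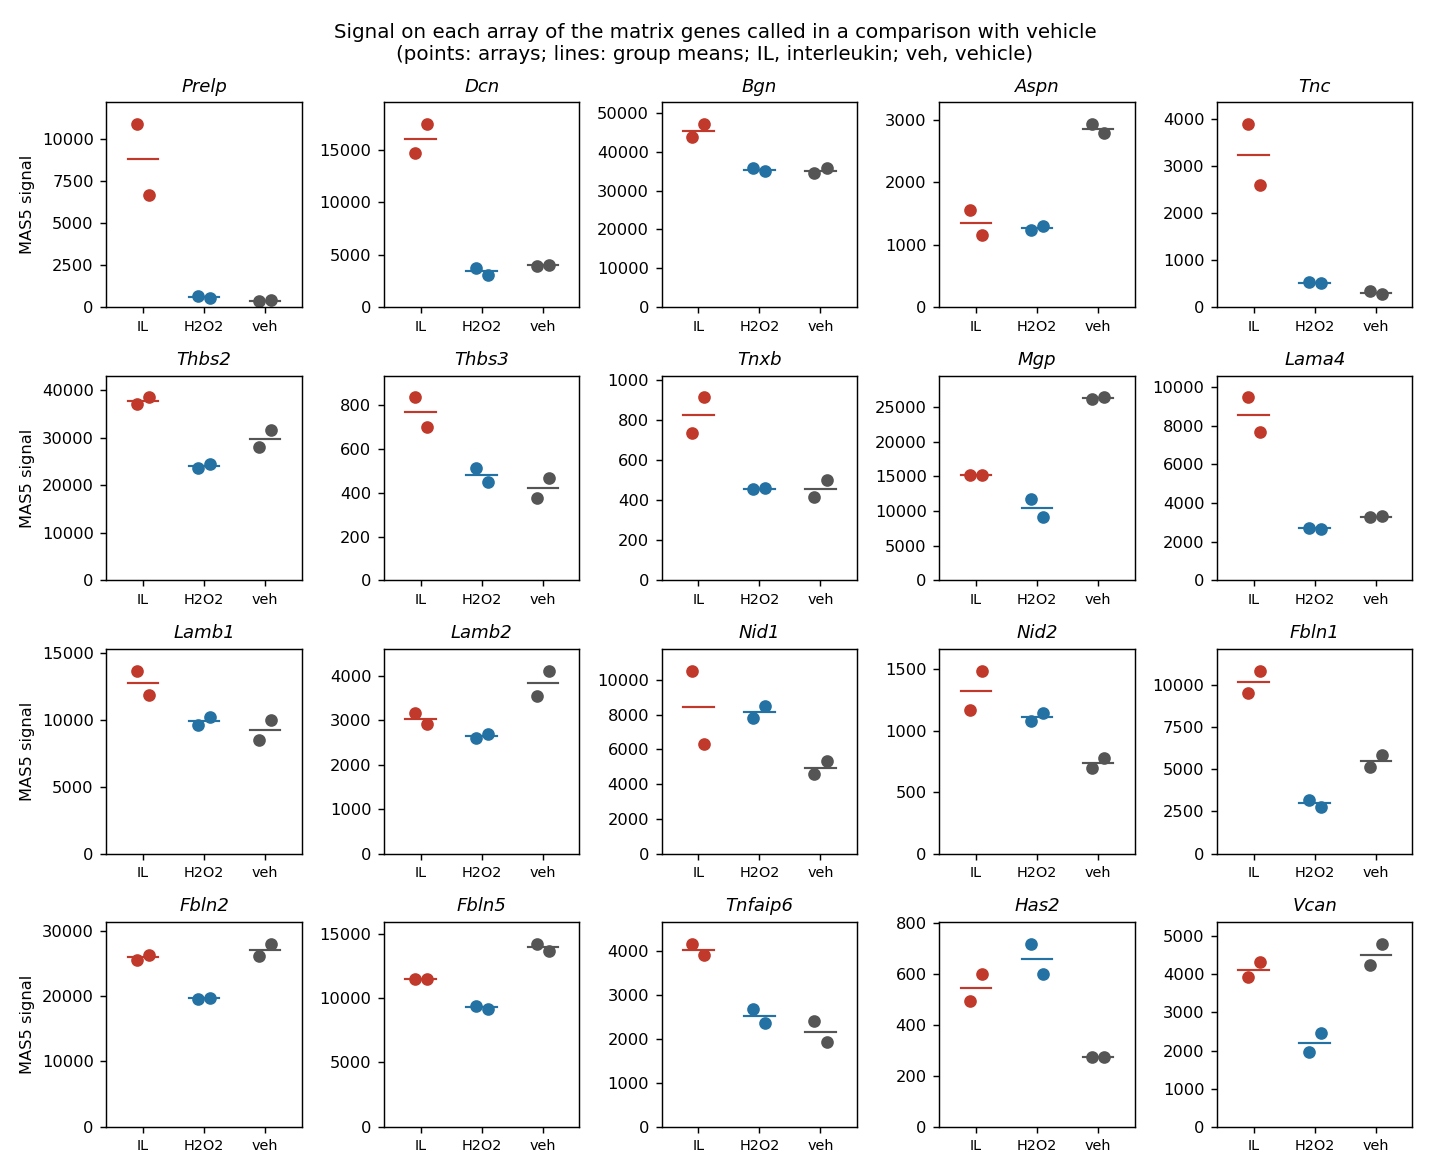
MAS5 signal (linear axis from 0) on each of the 6 arrays for the 20 genes that changed in a comparison with vehicle. Points are arrays, lines are group means, and the groups from left to right are interleukin, hydrogen peroxide and vehicle. The interleukin arrays of Prelp (10856 and 6686), Dcn, Tnc and Lama4 stand apart from the other 4, while both treated groups of Aspn and Mgp lie below vehicle.

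Of 10 tested adhesive and matricellular genes 4 rose and 1 fell under interleukin (9.78% and 6.61% of all tested genes). With hydrogen peroxide 1 fell (2.91% of all tested genes). Tnc encodes tenascin C, an anti-adhesive glycoprotein of wounds and inflamed tissue. Its signal was 3891 and 2592 with interleukin, 527 and 515 with hydrogen peroxide, and 336.5 and 287 with vehicle. The 3 groups did not overlap, with interleukin highest and vehicle lowest. The change was 3.35 ± 0.22 for interleukin (log2, SE, n = 2 per group, limma adjusted p = 6.69e-06), a fold of 10.2, and 0.74 ± 0.22 for hydrogen peroxide (adjusted p = 0.0761). The second Tnc probe set was too dim to be tested, at 185.7 and 48.5 with interleukin, 6.40 and 8.60 with hydrogen peroxide, and 1.30 and 2.50 with vehicle. One of the RefSeq windows of Tnc, at chr4:64046887-64047186 on the minus strand, is printed because Tnc was second to Prelp in the size of its rise. It held 1 match to the letters searched, TATAAA beginning 205 bases before the start. The similar letters tatataa, nearer the start, are not an exact match and stay in lower case.
Tnc: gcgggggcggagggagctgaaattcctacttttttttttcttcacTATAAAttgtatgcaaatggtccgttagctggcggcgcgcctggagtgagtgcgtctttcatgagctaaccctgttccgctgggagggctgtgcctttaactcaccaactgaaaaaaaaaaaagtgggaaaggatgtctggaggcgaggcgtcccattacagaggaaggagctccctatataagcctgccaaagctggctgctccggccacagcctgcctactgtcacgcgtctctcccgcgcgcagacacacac

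Thbs2 encodes thrombospondin 2, a matricellular inhibitor of angiogenesis. It read 36971 and 38433 with interleukin, 23580 and 24407 with hydrogen peroxide, and 28018 and 31555 with vehicle, so that vehicle lay between the treatments without overlap. It rose by 0.34 ± 0.08 under interleukin (log2, SE, limma adjusted p = 0.0165), a call lost when vehicle array 1 (adjusted p = 0.168) or interleukin array 2 (0.0643) was left out. Under hydrogen peroxide the change was -0.31 (adjusted p = 0.0511), but its other 2 probe sets pointed up there (0.32 and 0.31, adjusted p = 0.0782 and 0.0599). Those probe sets read 26155 and 23030, and 30293 and 30235 with interleukin, 19032 and 17886, and 23666 and 21308 with hydrogen peroxide, and 15671 and 13950, and 17499 and 18860 with vehicle. They rose under interleukin by 0.73 and 0.74 (adjusted p = 0.000648 and 0.000264), which leaves the interleukin direction the same on all 3 probe sets and the hydrogen peroxide direction unsettled.

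Thbs3, another thrombospondin, read 835 and 700 with interleukin, 515 and 451 with hydrogen peroxide, and 376 and 467 with vehicle, and only the interleukin arrays stood clear of the rest. It rose by 0.87 ± 0.23 (log2, SE, limma adjusted p = 0.0274). Tnxb, encoding tenascin X, read 734.5 and 914 with interleukin, 457 and 462 with hydrogen peroxide, and 415 and 502 with vehicle, and rose by 0.84 ± 0.22 (adjusted p = 0.0277). Both calls depended on single arrays. Without vehicle array 1 the adjusted p was 0.185 for Thbs3 and 0.184 for Tnxb, and without vehicle array 2 it was 0.0689 and 0.0757. Thbs3 had 0.131 without interleukin array 1 and Tnxb 0.132 without interleukin array 2. Neither changed under hydrogen peroxide (0.20 and 0.01, adjusted p = 0.653 and 0.989).

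Mgp encodes matrix Gla protein, an inhibitor of calcification. It read 15210 and 15224 with interleukin, 11765 and 9113 with hydrogen peroxide, and 26142 and 26382 with vehicle. The groups did not overlap, and hydrogen peroxide gave the lowest signals. Mgp fell by 0.79 ± 0.11 under interleukin and by 1.34 ± 0.11 under hydrogen peroxide (log2, SE, limma adjusted p = 0.00114 and 0.000316).

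The brightest matricellular signals belonged to genes that did not pass against vehicle, although signals of different probe sets do not rank transcripts. Sparc, encoding the collagen-binding osteonectin, read 65463 and 73339 with interleukin, 58667 and 54582 with hydrogen peroxide, and 69810 and 63176 with vehicle. Fn1, encoding fibronectin, read 53681 and 58042, 43849 and 48053, and 47247 and 55349 in the same groups. Their interleukin changes were 0.06 (95% confidence interval -0.12 to 0.24) for Sparc and 0.13 (-0.07 to 0.32) for Fn1. Their hydrogen peroxide changes were -0.23 (-0.41 to -0.05) and -0.16 (-0.35 to 0.04). A dimmer Fn1 probe set, at 6296 and 4950 with interleukin, 3342 and 5423 with hydrogen peroxide, and 4221 and 4138 with vehicle, had changes of 0.42 and 0.03 (adjusted p = 0.188 and 0.957).

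Ecm1, a secreted glycoprotein of skin and vessels, read 13909 to 15569 over all 6 arrays and did not pass (-0.07 and 0.06, adjusted p = 0.588 and 0.703). Thbs1, encoding thrombospondin 1, an activator of latent TGF-beta, read 6310 and 5239 with interleukin, 6395 and 7138 with hydrogen peroxide, and 5210 and 5612 with vehicle. Its changes were 0.09 for interleukin and 0.32 for hydrogen peroxide (adjusted p = 0.671 and 0.148). The other Thbs1 probe set, at 3199 and 2568, 3403 and 3973, and 3311 and 3543, had -0.26 and 0.10 (adjusted p = 0.255 and 0.722). Matn2, encoding matrilin 2, a filament-forming adaptor, read 6255 and 3813 with interleukin, 3517 and 2519 with hydrogen peroxide, and 3810 and 2756 with vehicle, with no call (0.59 and -0.12, adjusted p = 0.125 and 0.811). A dimmer Matn2 probe set gave another picture for hydrogen peroxide, at 4665 and 3676 with interleukin, 2253 and 2040.0 with hydrogen peroxide, and 4544 and 4118 with vehicle. It fell there by 1.01 (adjusted p = 0.00374), and its interleukin change was -0.06 (adjusted p = 0.807).

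Of 8 tested basement membrane genes 4 rose under interleukin (9.78% of all tested genes), and under hydrogen peroxide 1 fell (2.91%). Lama4 encodes the laminin alpha 4 chain of vascular and mesenchymal basement membranes. It read 9446 and 7685 with interleukin, 2690 and 2676 with hydrogen peroxide, and 3270 and 3325 with vehicle, with the interleukin arrays far above and the hydrogen peroxide arrays just below vehicle. It rose by 1.37 ± 0.12 under interleukin (log2, SE, n = 2 per group, limma adjusted p = 5.93e-05), a fold of 2.58, and the hydrogen peroxide change was -0.30 (adjusted p = 0.188). A dimmer Lama4 probe set did not share this, at 1716 and 829 with interleukin, 541 and 764.5 with hydrogen peroxide, and 1072 and 1324 with vehicle. Its interleukin arrays lay on both sides of vehicle (0.003, adjusted p = 0.997), and its hydrogen peroxide change was -0.89 (adjusted p = 0.119).

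Lamb1, encoding the laminin beta 1 chain, read 13688 and 11849 with interleukin, 9661 and 10219 with hydrogen peroxide, and 8496 and 10022 with vehicle. It rose by 0.46 ± 0.11 under interleukin (log2, SE, limma adjusted p = 0.018), a call lost when vehicle array 1 (adjusted p = 0.17) or interleukin array 1 (0.0983) was left out. A second Lamb1 probe set read 7146 and 5742, 6061 and 6002, and 4383 and 4161 in the same groups, and rose under both treatments (0.58 and 0.50, adjusted p = 0.00898 and 0.0407). The last read 3445 and 3541, 2522 and 3082, and 2421 and 2932 and did not pass (0.39 and 0.07, adjusted p = 0.0947 and 0.833).

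The nidogens link laminin to type IV collagen. Nid1 read 10536 and 6317 with interleukin, 7786 and 8516 with hydrogen peroxide, and 4587 and 5307 with vehicle, and all 4 treated arrays lay above vehicle. It rose by 0.73 ± 0.19 under interleukin (log2, SE, limma adjusted p = 0.0293), and the hydrogen peroxide change of 0.72 just missed the threshold (adjusted p = 0.0564). The interleukin call was lost without vehicle array 1 (adjusted p = 0.177), vehicle array 2 (0.0774) or interleukin array 1 (0.118), the last with a change of 0.36. A dimmer Nid1 probe set, at 1379 and 740, 1293 and 1980, and 1272 and 1314, had -0.36 and 0.31 (adjusted p = 0.432 and 0.562). Nid2 read 1164 and 1487 with interleukin, 1074 and 1146 with hydrogen peroxide, and 699 and 779.5 with vehicle, again with every treated array above vehicle. It rose by 0.83 ± 0.18 under interleukin (adjusted p = 0.0105, but 0.0879 when vehicle array 1 and 0.0606 when interleukin array 2 was left out), with 0.59 under hydrogen peroxide (adjusted p = 0.0821).

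Lamb2, the laminin beta 2 chain of mature vessels and the glomerulus, read 3161 and 2916 with interleukin, 2613 and 2686 with hydrogen peroxide, and 3556 and 4119 with vehicle. It fell by 0.53 ± 0.13 under hydrogen peroxide (log2, SE, limma adjusted p = 0.0356), and the interleukin change was -0.33 (adjusted p = 0.0983). The fall was lost without hydrogen peroxide array 1 (adjusted p = 0.163), hydrogen peroxide array 2 (0.104), vehicle array 1 (0.1) or vehicle array 2 (0.286). Lamc1, the gamma 1 chain shared by most laminins, read 8384 and 6525 with interleukin, 5516 and 6728 with hydrogen peroxide, and 5231 and 6591 with vehicle (0.33 and 0.05, adjusted p = 0.183 and 0.88). A dimmer Lamc1 probe set, at 867 and 686, 578 and 840.5, and 912 and 1132, had changes of -0.40 and -0.54 (adjusted p = 0.278 and 0.197).

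Hspg2 encodes perlecan, the large heparan sulphate proteoglycan of basement membranes. It read 5682 and 5119 with interleukin, 3949 and 4920 with hydrogen peroxide, and 3800 and 5922 with vehicle, and its vehicle arrays spanned all the others (0.19 and -0.11, adjusted p = 0.555 and 0.792). Another Hspg2 probe set, at 4892 and 5164, 3991 and 4397, and 3142 and 4857, had 0.36 and 0.10 (adjusted p = 0.195 and 0.787). Lama5, the laminin alpha 5 chain, read 184 and 302, 230.5 and 239.5, and 327 and 251, with wide intervals (-1.08 to 0.52 for interleukin and -1.09 to 0.51 for hydrogen peroxide).

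Of 7 tested elastic fibre and microfibril genes 1 rose under interleukin, where 9.78% of all tested genes rose. The 3 that fell under hydrogen peroxide, where 2.91% of all tested genes fell, were all fibulins. Fbln1 encodes fibulin 1, a secreted glycoprotein that binds fibronectin, laminin and elastic fibres. It read 9497 and 10822 with interleukin, 3177 and 2771 with hydrogen peroxide, and 5108 and 5830 with vehicle. The 3 groups did not overlap, with interleukin above and hydrogen peroxide below vehicle. Fbln1 rose by 0.89 ± 0.12 under interleukin and fell by 0.88 ± 0.12 under hydrogen peroxide (log2, SE, n = 2 per group, limma adjusted p = 0.000883 and 0.0038), the fall with adjusted p = 0.0512 without vehicle array 2. It was the only tested gene of the list that changed in opposite directions in the comparisons with vehicle. A second probe set read 4559 and 4384 with interleukin, 787 and 757.5 with hydrogen peroxide, and 1769 and 1964 with vehicle, and passed both ways too (1.26 and -1.27, adjusted p = 0.000177 and 0.00105). The last, dim probe set read 400 and 304, 174 and 238, and 159 and 178 (1.05 and 0.27, adjusted p = 0.0736 and 0.704). A RefSeq promoter window of Fbln1, at chr15:85205758-85206057 on the plus strand, is printed because of this opposite pattern, and it held 1 NF-kappaB match on the minus strand, beginning 29 bases before the start. In the other Fbln1 window, at chr15:85205699-85205998, the same match begins 30 bases after the RefSeq start of that window.
Fbln1: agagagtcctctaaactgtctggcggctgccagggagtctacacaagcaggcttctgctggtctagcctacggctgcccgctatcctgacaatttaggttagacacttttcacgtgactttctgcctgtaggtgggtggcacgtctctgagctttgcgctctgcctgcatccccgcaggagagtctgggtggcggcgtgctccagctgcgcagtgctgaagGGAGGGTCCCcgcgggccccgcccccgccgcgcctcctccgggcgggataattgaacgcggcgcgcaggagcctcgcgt

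Fbln2, encoding fibulin 2, read 25586 and 26306 with interleukin, 19554 and 19728 with hydrogen peroxide, and 26104 and 27974 with vehicle. Only the hydrogen peroxide arrays stood apart, and Fbln2 fell there by 0.46 ± 0.08 (log2, SE, limma adjusted p = 0.00789), whereas the interleukin change was -0.06 (-0.23 to 0.11, adjusted p = 0.653). The fall had adjusted p = 0.0569 without hydrogen peroxide array 1, 0.0538 without vehicle array 1 and 0.102 without vehicle array 2. A much dimmer Fbln2 probe set read 277 and 348, 192 and 307, and 834 and 540, and fell under both treatments (-1.11 and -1.47, adjusted p = 0.0448 and 0.0302). Fbln5, encoding fibulin 5, which organises elastin on microfibrils, read 11500 and 11459 with interleukin, 9413 and 9158 with hydrogen peroxide, and 14198 and 13653 with vehicle, in 3 separate groups. It fell by 0.58 ± 0.09 under hydrogen peroxide (adjusted p = 0.00465, 0.064 without vehicle array 1), and the interleukin change of -0.28 just missed the threshold (adjusted p = 0.0504).

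Emilin1, a glycoprotein between elastin and microfibrils, read 6945 and 6786 with interleukin, 5269 and 5446 with hydrogen peroxide, and 6132 and 7178 with vehicle. Its hydrogen peroxide arrays were the lowest, but it did not pass (0.05 and -0.31, adjusted p = 0.804 and 0.126). Its other probe set, at 2636 and 2980, 2141 and 2593, and 2963 and 2741, had -0.02 and -0.27 (adjusted p = 0.93 and 0.28). Mfap2, a microfibril component, read 3266 and 3284, 3182 and 3176, and 2346 and 3400.2 (0.21 and 0.17, adjusted p = 0.418 and 0.585). Its dim probe set, at 289 and 425, 427 and 459, and 408 and 342, had -0.09 and 0.25 (adjusted p = 0.86 and 0.658). Mfap5, a related microfibril protein, had 1 interleukin array, at 683, well above the other (358) and above the remaining arrays (303 to 339), and did not pass (0.65 and 0.05, adjusted p = 0.212 and 0.945). The other Mfap5 probe set, at 284 and 264, 196 and 235, and 166.5 and 96.3, had 1.11 and 0.76 (adjusted p = 0.0923 and 0.308). Eln, encoding elastin, read 615 and 996 with interleukin, 542 and 609 with hydrogen peroxide, and 669.5 and 703 with vehicle (0.19 and -0.25, adjusted p = 0.647 and 0.584).

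Of 4 tested hyaluronan and versican genes 2 rose under interleukin (9.78% of all tested genes). With hydrogen peroxide 1 rose and 1 fell (4.08% and 2.91% of all tested genes). Tnfaip6, encoding the hyaluronan-binding protein TSG-6, which is induced in inflammation, read 4156 and 3899 with interleukin, 2665 and 2348 with hydrogen peroxide, and 2409 and 1921 with vehicle. The interleukin arrays stood above, and the other groups overlapped. It rose by 0.90 ± 0.14 under interleukin (log2, SE, n = 2 per group, limma adjusted p = 0.0021), with 0.22 under hydrogen peroxide (adjusted p = 0.412). Its promoter window at chr2:52037863-52038162 on the plus strand is printed because it alone among the tested genes with a window held both an AP-1 and a STAT match, beginning 142 and 209 bases before the start.
Tnfaip6: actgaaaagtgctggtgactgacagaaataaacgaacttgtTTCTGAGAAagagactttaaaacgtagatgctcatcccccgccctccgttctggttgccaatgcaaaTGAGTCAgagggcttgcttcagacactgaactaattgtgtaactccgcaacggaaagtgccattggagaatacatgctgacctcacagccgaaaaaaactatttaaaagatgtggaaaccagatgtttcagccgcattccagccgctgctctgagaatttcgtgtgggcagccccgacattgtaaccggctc

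Hyaluronan itself is made by 3 synthases. Has2 read 494 and 599.5 with interleukin, 719 and 601 with hydrogen peroxide, and 274 and 273 with vehicle, so that every treated array lay well above vehicle. It rose by 0.99 ± 0.24 under interleukin and by 1.27 ± 0.24 under hydrogen peroxide (log2, SE, limma adjusted p = 0.0182 and 0.0143), and it was the only gene of the list that rose under hydrogen peroxide by its brightest probe set. Without vehicle array 1 the adjusted p values were 0.0898 and 0.0889, without vehicle array 2 they were 0.0901 and 0.0925, and each call was also lost without 1 treated array (0.086 without interleukin array 2, 0.102 without hydrogen peroxide array 1). The other Has2 probe set read 407.5 and 594, 454 and 593, and 362 and 260, again higher on all treated arrays, and did not pass (0.68 and 0.76, adjusted p = 0.147 and 0.159). Has1 read 2051 and 2306 with interleukin, 2111 and 1928 with hydrogen peroxide, and 1793 and 1841 with vehicle, and did not pass (0.26 and 0.15, adjusted p = 0.228 and 0.556).

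Vcan encodes versican, the large hyaluronan-binding proteoglycan. It read 3927 and 4313 with interleukin, 1970 and 2452 with hydrogen peroxide, and 4241 and 4798 with vehicle, and only the hydrogen peroxide arrays stood apart. It fell by 1.04 ± 0.14 there (log2, SE, limma adjusted p = 0.00304), a signal 2.05-fold lower than with vehicle, and the interleukin change was -0.13 (-0.44 to 0.18, adjusted p = 0.567). A second Vcan probe set, at 2180 and 2375, 1186 and 1627, and 2453 and 2852, also fell under hydrogen peroxide (-0.93, adjusted p = 0.0122). The last, at 590 and 776, 381 and 583, and 831 and 835, had -0.82 (adjusted p = 0.0807), and their interleukin changes were -0.22 and -0.30 (adjusted p = 0.432 and 0.459).

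The treatments were also compared with each other, which does not involve the vehicle arrays in the difference itself. The 13 genes that differed were all higher with interleukin, namely Prelp, Dcn, Bgn, Tnc, Thbs2, Tnxb, Mgp, Sparc, Lama4, Fbln1, Fbln2, Tnfaip6 and Vcan. The log2 difference was 3.84 ± 0.23 for Prelp, 2.61 ± 0.22 for Tnc, 2.23 ± 0.12 for Dcn, 1.77 ± 0.12 for Fbln1, 1.67 ± 0.12 for Lama4 and 0.90 ± 0.14 for Vcan (SE, n = 2 per group, limma adjusted p from 2.98e-06 to 0.00263). These 6 passed under the 15 alternatives that keep the threshold and a single probe set per gene. Vcan was the only one of them under 2-fold (1.87). Mgp was lower than vehicle under both treatments, and its interleukin signals exceeded those with hydrogen peroxide by 0.56 ± 0.11 (adjusted p = 0.0122, 0.0566 without interleukin array 2 and 0.0932 without hydrogen peroxide array 2). Thbs2 differed by 0.65 ± 0.08 and Tnfaip6 by 0.69 ± 0.14 (adjusted p = 0.000625 and 0.0143), the second with adjusted p = 0.0583 without interleukin array 1 and 0.118 without hydrogen peroxide array 2. Bgn and Fbln2 differed by 0.36 and 0.40 (adjusted p = 0.0109 and 0.0086). Both calls were lost without hydrogen peroxide array 2 (differences of 0.35 and 0.41), and that of Bgn also without interleukin array 2 (0.31). Both were lost as well when probe sets with the suffixes _s_at, _x_at and _a_at were dropped, which puts another probe set in their place. The differences were then 0.23 for Bgn and 0.36 for Fbln2 (limma adjusted p = 0.0745 and 0.569). For Fbln2 the replacement was the much dimmer probe set described above, with a geometric mean of 369.6 against 23968.4.

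Sparc and Tnxb passed narrowly (0.29 and 0.83, adjusted p = 0.0478 and 0.043). Leaving out either hydrogen peroxide array or either vehicle array ended both calls, as did leaving out interleukin array 2, and Tnxb was also lost without interleukin array 1 (highest adjusted p = 0.264 for Sparc and 0.192 for Tnxb). Both were lost as well with the replicate number as a block (adjusted p = 0.0616 for Sparc and 0.0521 for Tnxb), with only the 4 arrays compared (0.0635 and 0.0583), with no filter on signal (0.166 and 0.0951) and without a trend (0.264 and 0.0632). For genes that changed under both treatments the direct difference of Aspn was 0.08 (95% confidence interval -0.29 to 0.44) and that of Has2 was -0.27 (-0.80 to 0.26). Nid1 had a difference of 0.003 (-0.43 to 0.43) and Nid2 of 0.25 (-0.15 to 0.64).

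**Figure D3:**
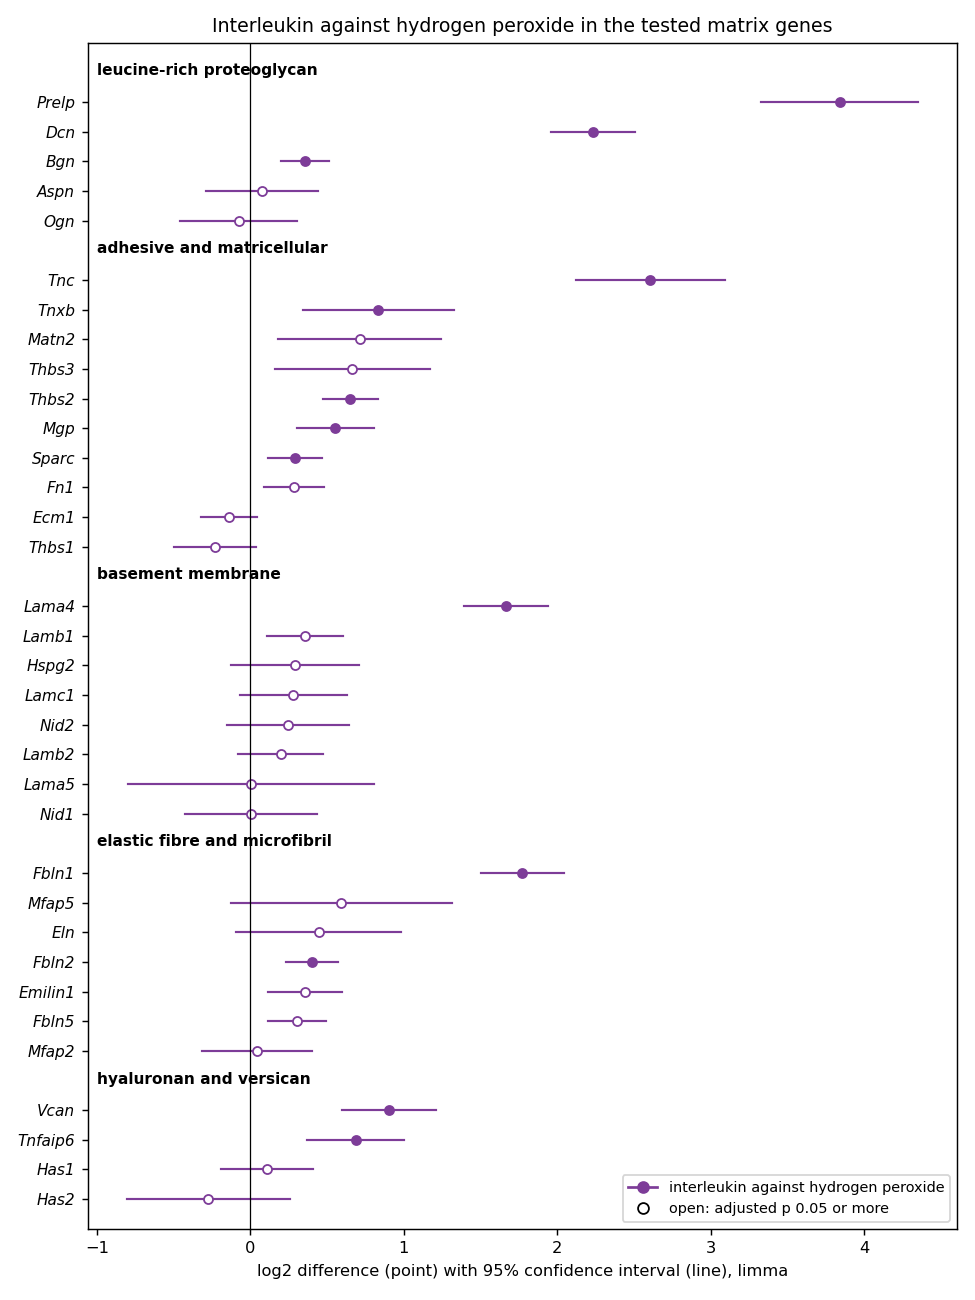
Log2 difference between interleukin and hydrogen peroxide for each of the 34 tested matrix genes, grouped by role. Points are limma estimates from 2 arrays per group, lines are 95% confidence intervals, and filled points have an adjusted p under 0.05. All 13 filled points lie to the right of 0, from 0.29 for Sparc to 3.84 for Prelp.

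The probe sets of a gene did not always agree. Of the 34 tested genes 21 had several tested probe sets, and their changes pointed the same way in 14 genes under interleukin and in 15 under hydrogen peroxide. The call differed between probe sets of a gene in 7 of the 21 under interleukin and in 7 under hydrogen peroxide, and 0 genes had probe sets called in opposite directions in the same comparison. Counting a gene as changed when any tested probe set passed gave 14 higher and 3 lower under interleukin and 3 higher and 8 lower under hydrogen peroxide. The share of all tested genes under this looser rule was not computed. These counts therefore cannot be set against the shares given above for the brightest probe set. The 3 higher under hydrogen peroxide include Prelp through its dimmer probe set. Its vehicle signals (46.5 and 47.4) lay below the signal limit, and its average over all arrays was raised by interleukin signals of 4900 and 2436.

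**Figure D4:**
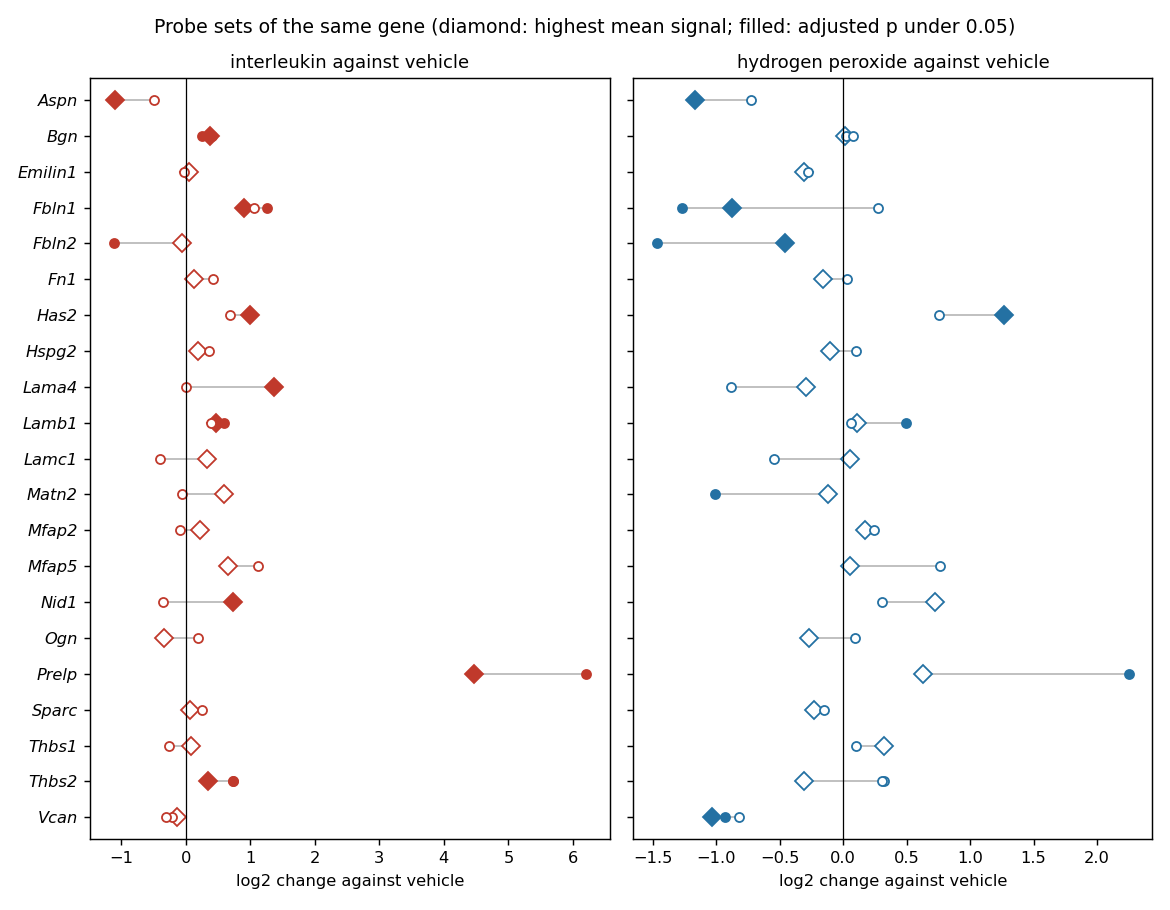
Log2 change against vehicle of every tested probe set of the 21 genes with several tested probe sets, for interleukin (left, red) and hydrogen peroxide (right, blue). Diamonds are the probe sets of highest mean signal, circles the others, and filled marks have an adjusted p under 0.05. Grey lines join probe sets of a gene. Prelp has the widest spread under both treatments (4.47 to 6.20 and 0.63 to 2.25).

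The other 11 genes were too dim to be tested by their brightest probe set, which read between 3 and 435 over all arrays. Postn encodes periostin, a matricellular protein of injured tissue, and read 435 and 373 with interleukin, 151 and 108 with hydrogen peroxide, and 137 and 128 with vehicle. Its interleukin arrays stood apart from the others, and with no filter on signal the change was 1.61 (limma adjusted p = 0.0574). Fmod, encoding the proteoglycan fibromodulin, read 212.5 and 198 with interleukin, 58.3 and 73.2 with hydrogen peroxide, and 108 and 129 with vehicle, with 0.80 and -0.85 in the same fit (adjusted p = 0.51 and 0.559). The remaining dim genes were Comp, Efemp1, Fbn2, Has3, Lama2, Lum, Mfap4, Smoc1 and Smoc2, and none of the 11 passed without the filter.

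A promoter window was at hand for 23 of the 34 tested genes. The letters TATAAA were found in windows of 5 of these genes (Aspn, Ecm1, Ogn, Thbs2 and Tnc), beginning from 27 (Ecm1) to 229 (Ogn) bases before the start. AP-1 was found in 3 (Ecm1, Tnfaip6 and Tnxb), STAT in 2 (Lamb2 and Tnfaip6) and NF-kappaB in 3 (Fbln1, Mfap2 and Thbs2). Over all 32851 windows of the same length the shares holding a match were 13.6% for TATAAA, 7.81% for AP-1, 8.3% for STAT and 8.46% for NF-kappaB. These shares count windows and the numbers before them count genes, some with several windows, so they are unlike measures. These are matches of letters and say nothing of binding.

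Other genes of the same pathways, from 4 lists of 129 names, gave 74 tested genes. Of these 17 rose and 7 fell under interleukin (23% and 9.46%) and 3 rose and 7 fell under hydrogen peroxide (4.05% and 9.46%). Among all tested genes 9.78% rose and 6.61% fell under interleukin, and 4.08% rose and 2.91% fell under hydrogen peroxide. The same shares stand beside the counts of each list below. Among 12 tested genes of elastic fibre crosslinking and latent TGF-beta binding 3 rose and 1 fell under interleukin. Lox, the lysyl oxidase that crosslinks elastin and collagen, read 45949 and 48874 with interleukin, 20930 and 20497 with hydrogen peroxide, and 32381 and 34309 with vehicle. It rose by 0.51 under interleukin and fell by 0.69 under hydrogen peroxide (limma adjusted p = 0.00126 and 0.00112), and its groups did not overlap. Ltbp2, which associates with elastic fibres, read 1778 and 1202, 535 and 552.5, and 200 and 168 and rose under both (folds of 7.99 and 2.97, adjusted p = 3.2e-05 and 0.00648), from a vehicle signal (geometric mean 183.1) below the 193.7 limit. The others that passed were Loxl1, which rose, and Ltbp1, which fell (0.60 and -0.30, adjusted p = 0.00231 and 0.0298), both under interleukin.

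Of 10 tested hyaluronan turnover genes and receptors 3 rose under interleukin, and 1 rose and 1 fell under hydrogen peroxide. Cemip, encoding a protein needed for hyaluronan breakdown, read 4313 and 2435 with interleukin, 386 and 346 with hydrogen peroxide, and 167.5 and 191 with vehicle (4.18 and 1.03, limma adjusted p = 6.26e-06 and 0.0543), from vehicle signals below the 193.7 limit. Cd44, the hyaluronan receptor, rose under both treatments (0.56 and 0.68, adjusted p = 0.00207 and 0.00266). Ugdh, which makes the UDP-glucuronate used by hyaluronan synthases, rose under interleukin (0.29, adjusted p = 0.0288), and Cemip2 fell under hydrogen peroxide (-0.48, adjusted p = 0.0228).

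Among 21 other secreted matrix glycoproteins and proteoglycans 4 rose and 5 fell under interleukin, and 5 fell under hydrogen peroxide. Tgfbi, a TGF-beta induced adhesion protein, read 3588 and 4083 with interleukin, 678 and 594 with hydrogen peroxide, and 933 and 866 with vehicle, and rose by 2.09 under interleukin (limma adjusted p = 1.67e-05). Svep1 rose too (1.37, adjusted p = 0.000756), whereas Crispld2 and Lama1 fell (-1.30 and -1.34, adjusted p = 0.000957 and 0.00146). Under hydrogen peroxide Dpt, which encodes dermatopontin, fell by 1.08, Sparcl1 by 1.21, Crispld2 by 0.90 and Emilin2 by 0.53 (adjusted p = 0.00173, 0.00918, 0.0188 and 0.0258). Dpt and Sparcl1 fell under interleukin too (-0.44 and -1.26, adjusted p = 0.0404 and 0.00254), and Emilin2 did not pass there (-0.36, adjusted p = 0.0578). Of 31 cell-surface proteoglycans and chain enzymes 7 rose and 1 fell under interleukin, led by Ext1, a heparan sulphate polymerase (0.95), Tgfbr3, the proteoglycan betaglycan (0.56), Csgalnact1, which starts chondroitin chains (1.45), and Sdc4, a syndecan (0.63), with adjusted p = 0.000379, 0.00306, 0.00468 and 0.00739. Under hydrogen peroxide only Gpc4, a glypican, passed in that list (0.67, adjusted p = 0.00607), and it rose under interleukin as well (0.40, adjusted p = 0.0265).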

How the data were processed

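Gene expression was measured on 6 Affymetrix arrays, 2 in each of 3 groups named by the sample titles. The deposited files hold intensities, 1 linear MAS5 signal for each probe set, and MAS5 is named by the submitters' processing notes with a version not given in the sources used here. Each array had the same mean after trimming 2% at each end. Signals were log2 transformed without a pseudocount, and 64 control probe sets were left out. Gene symbols are those of the array annotation, brought up to date with a RefSeq gene table (34754 of 34958 probe sets with 1 symbol matched, 932 had several symbols, 9211 none). Probe sets with a mean log2 signal at or above the median (22519 of 45037) entered 1 limma fit (version 3.58.1, R 4.3.3) over the 6 arrays with a trend of the variance on signal and Benjamini-Hochberg adjustment over all of them. Folds come from fitted log2 changes and standard errors are moderated. The steps were tested on simulated data.

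The genes and lists were chosen with earlier results of these data known, so counts over them describe and do not test. Values per array are given for genes called against vehicle, genes whose probe sets disagree, and the 5 brightest genes in vehicle. From the other lists up to 4 called genes of smallest p per comparison are named. As alternatives the signals were quantile normalized, centred on their 75th percentile or raised by a pseudocount of 32, and the signal filter was dropped or made stricter (65th percentile). The fit was repeated without the trend, with the arrays of 2 groups only, with the replicate number as a block and with every array omitted once. Further alternatives dropped probe sets with the suffixes _s_at, _x_at and _a_at, counted any probe set of a gene, or asked for a fold of at least 2. The labels do not say whether same-numbered arrays belong together, and the numbers were not taken as pairs in the main fit. Marker lists covered stromal, endothelial, leukocyte and epithelial cells.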

Additional observations from a re-analysis of the deposited data

How the results depend on the processing

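Of 933 values of named genes recomputed over the 3 comparisons, 0 turned a call to the other direction, 85 lost a call and 18 gained one. Counts of changed matrix genes (16, 8 and 13 for interleukin against vehicle, hydrogen peroxide against vehicle and interleukin against hydrogen peroxide) came to 12, 0 and 6 without a variance trend and to 5, 4 and 5 with a fold of at least 2. In the fit without a trend 886, 34 and 429 of all tested genes passed in the same comparisons. At an unadjusted p under 0.05 there were 2873 (26.4%), 2286 (21%) and 2356 (21.6%). Leaving out 1 array gave 8 to 16, 3 to 10 and 7 to 11, which by construction leaves 1 array in a group that is assumed to vary like the others. The other pathway genes (24 for interleukin and 10 for hydrogen peroxide) came to 11 and 0 without a trend (34 and 24 at an unadjusted p under 0.05), to 9 and 3 with a fold of at least 2, and to 14 to 23 and 4 to 11 without 1 array. The cause was not tested. Deviations of same-numbered arrays correlated at 0.107, 0.053 and -0.129 between groups. With 2 arrays per group this cannot show whether same-numbered arrays were handled together. The counts with a replicate block were 17, 9 and 13. The 13 lacked Sparc (limma adjusted p = 0.0616) and Tnxb (0.0521) and held 2 other genes. With the interleukin numbers crossed, chosen after seeing the data, and only the 4 arrays compared, the count between the treatments was 18. It differs from the 13 in the arrays fitted as well as in the numbering, so it does not show the effect of the numbering alone. Detection calls were not used here, so signals near the limit of 193.7 are the least certain.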
